A study of Mus musculus with 56 samples.

Results

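The nuclear genes for the oxidative phosphorylation complexes were followed in liver mRNA of mice that had lost miR-122, the most abundant microRNA of hepatocytes. The rows of the RNA-seq table whose symbol begins with Nduf, Uqcr, Atp5, Cox4, Cox5, Cox6, Cox7 or Cox8, and the rows of Sdha, Sdhb, Sdhc and Sdhd, were taken, which gave 90 of 22308 rows. By their known roles, 36 encode subunits of complex I, 4 of complex II, 8 of complex III, 11 of complex IV and 15 of complex V. The other rows are 4 complex I assembly factors, 8 isoforms of complex IV subunits known from other tissues or conditions, the supercomplex factor Cox7a2l and 3 genes whose products are not subunits. A mean of at least 1 FPKM (read fragments scaled to transcript length and to library size) over the 14 libraries was reached by 83 of the 90, which were tested among 11354 genes. The 7 below it were Ndufs5, Atp5g2, Cox4i2, Cox6a2, Cox7b2, Cox8b and Cox8c. The table holds 0 rows for the subunits encoded in mitochondrial DNA.

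All libraries were made from poly(A) RNA of liver, and all are labelled with the strain background 129Sv/J. Mice with loxP sites around miR-122 were left uninjected (day 0, 3 libraries) or received a recombinant AAV8 vector that expresses Cre from the Ef1a promoter, which is not specific to hepatocytes, by tail vein. Their livers were taken 21 days (3 libraries), 45 days (3 libraries), 100 days (1 library) and 200 days (1 library) later. A further group carried a germline knockout of miR-122 (3 libraries, A to C) and received no vector. The uninjected mice received no vector either, so effects of the vector and of miR-122 loss cannot be told apart at days 21 to 200. The knockout was compared with the same uninjected floxed mice and not with littermates of its own. Age and sex are not among the labels, and the methods also name purchased C57Bl/6 mice without tying them to these groups. All 4 comparisons with day 0 share the same 3 control libraries.

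Oxidative phosphorylation couples electron transport to ATP synthesis in the inner mitochondrial membrane. Complex I (NADH dehydrogenase) and complex II (succinate dehydrogenase, also an enzyme of the citric acid cycle) pass electrons to ubiquinone, complex III passes them to cytochrome c, and complex IV (cytochrome c oxidase) passes them to oxygen. Complexes I, III and IV pump protons, and complex V (ATP synthase) uses the gradient to make ATP. Hepatocytes are rich in mitochondria, and their respiration supplies the energy for gluconeogenesis and urea synthesis. Most subunits are encoded in the nucleus by short, abundant mRNAs and imported into the organelle.

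Small RNA libraries with the same day and replicate labels are not labelled as from the same animals. In them miR-122 made up 59.2% to 73.3% of microRNA reads (RPM, reads scaled to library size) at day 0 and 8.22% to 13.2% at day 21. It made up 0.383% to 1.23% at day 45, 4.46% at day 100 and 19.1% at day 200. Small RNA of the germline knockout was not analysed here. Read depth is not stored in FPKM, but the spacing of low values put the knockout libraries at 0.412 to 0.50 of the depth of day 0 A and the others at 0.624 to 1.0, so low values in the knockout are the least precise. Log2(FPKM + 1) of replicates correlated across genes at 0.956 to 0.981 at day 0 and at 0.881 to 0.986 in the knockout, where library C stood apart. Y-linked transcripts in place of Xist were found in 4 libraries, namely day 0 B, day 21 C, day 45 C and knockout C, so each of those groups held more than 1 animal. The labels do not otherwise say what a replicate is, and p-values measure the spread between these libraries. Of 15 hepatocyte markers, Alb was listed at 0 in every library and Serpina1a and Serpina1c in all libraries of days 0, 21 and 45, so a listed 0 can be a failed estimate. The other 12 summed to 48119 to 58493 FPKM at day 0, 41623 to 45301 at day 21, 34791 to 41654 at day 45, 26764 to 40326 at days 100 and 200 and 42667 to 48643 in the knockout. Markers of other cells stood higher at day 45, where 23.7% of all genes rose but 11 of 11 macrophage, 8 of 10 lymphocyte, 8 of 9 stellate cell and fibroblast and 6 of 7 cholangiocyte markers did. The 2 of 9 endothelial markers that rose are about the share of all genes. Summed macrophage markers were already at 1003 to 1243 FPKM at day 21 against 393 to 712 at day 0, and lymphocyte markers at 37.7 to 68.4 against 5.70 to 12.3. In the knockout erythroid markers summed to 175 to 839 FPKM against 122 to 159 at day 0, stellate cell and fibroblast markers to 198 to 291 against 141 to 192, and endothelial markers to 91.1 to 103 against 103 to 181.97. Summed cholangiocyte markers went from 50.3 to 65.4 FPKM at day 0 to 412 to 1352 at day 45, 1939 to 2943 at days 100 and 200 and 562 to 816 in the knockout. In such bulk tissue fewer cells of a type and less RNA per cell cannot be told apart, and the part of these cells in the results was not tested.

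Before Cre the subunit mRNAs were among the abundant ones of the liver, and together the 90 rows held 3.38% ± 0.31 (SD, n = 3) of all FPKM. Alb, listed at 0, adds nothing to that total. Levels within a complex were far from equal, although the proteins assemble in fixed proportions. FPKM is a level per transcript length, which allows genes to be set side by side, with the limit that the lowest subunits of complexes I, III, IV and V have near-identical copies that make their levels uncertain. Complex II, which has only 4 subunits and no such copies, ranged from Sdhb (the iron-sulfur subunit) at 204 ± 9.35 FPKM to Sdhd (a membrane anchor that binds ubiquinone) at 302 ± 34.5 FPKM. In complex III the range ran from Uqcrb, a small subunit near the quinone site, at 89.7 ± 16.2 FPKM to Uqcrh, the hinge protein beside cytochrome c1, at 565 ± 145 FPKM. Complex I had a median of 126 FPKM with Ndufa3, an accessory subunit, highest at 462 ± 63.8 FPKM and Ndufs5 lowest. Complex IV ran from Cox5b at 12.9 ± 3.35 FPKM to Ndufa4 at 1107 ± 165 FPKM, the highest level of any subunit. Ndufa4 was first described in complex I and is now placed in complex IV. Complex V ran from Atp5g2, 1 of 3 genes for the c-ring subunit, to Atp5b, the catalytic beta subunit, at 865 ± 38.6 FPKM.

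**Figure D1:**
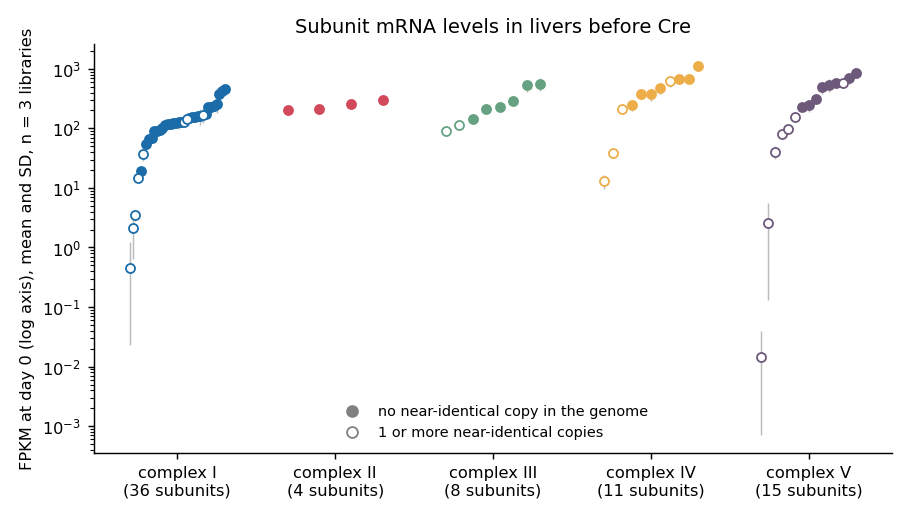
FPKM of each subunit mRNA at day 0 on a log axis, ordered within complexes I to V; points are means of 3 libraries, lines are SD (shortened below where they would pass 0), and open points are genes with at least 1 near-identical copy elsewhere in the genome. All 5 subunits under 10 FPKM are open points, and complex II holds none.

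The 5 lowest subunits all had near-identical copies, although most genes with copies were not low. A copy was defined as a stretch elsewhere in the mouse genome (NCBIM37, the mm9 build of the files) that matches at least 80% of the coding sequence at 95% identity or more. Such copies were found for 21 of the 90 rows, 19 of them tested, and Atp5l had the most, with 8. All 5 subunits below 10 FPKM at day 0, 3 of complex I and 2 of complex V, had at least 1, while Cox6c, with 1 copy, was at 541 FPKM or more. Reads that fit a gene and its copy equally well can be split or dropped, so levels of these 21 genes are uncertain. Ndufs5 shows the pattern at its clearest, with 1.38 FPKM in day 0 C, 4.63 FPKM in day 45 A and at most 0.001 FPKM in the other 12 libraries. Atp5g2 reached 0.919 FPKM in knockout A and less elsewhere. The stretches below, printed 5′ to 3′ along the coding strand, show how little separates a low subunit from its copy; capitals mark the bases that differ within the stretch. For Cox5b (chr1:36748332-36750233) the copy at chr13:21592898-21593287 differed at 3 of 390 aligned positions, 2 of them shown here in coding bases 154 to 243, opposite chr13:21593045-21593134. For Ndufs5 (chr4:123389953-123395429) the copy at chr16:42955744-42956064 differed at 2 of 321 positions, both within coding bases 16 to 105, opposite chr16:42955759-42955848.
Cox5b gene: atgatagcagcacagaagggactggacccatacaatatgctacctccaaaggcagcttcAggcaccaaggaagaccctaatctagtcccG
Cox5b copy: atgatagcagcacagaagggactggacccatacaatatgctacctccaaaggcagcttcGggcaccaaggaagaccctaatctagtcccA
Ndufs5 gene: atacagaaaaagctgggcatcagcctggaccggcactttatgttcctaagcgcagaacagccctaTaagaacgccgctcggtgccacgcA
Ndufs5 copy: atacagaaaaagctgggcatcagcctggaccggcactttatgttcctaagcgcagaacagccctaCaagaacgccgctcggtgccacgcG

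After excision of miR-122 the subunit mRNAs of all 5 complexes were lower. At day 21 all 72 tested subunits had a fold change below 0, at day 45 68 of 72, at days 100 and 200 70 of 72 and in the knockout 49 of 72. The median change of all genes lay above 0 in each comparison, though in the knockout only just, at 0.02. The 90 rows together held a share of all FPKM of 2.48% ± 0.07 at day 21 (n = 3), 2.59% ± 0.13 at day 45 (n = 3), 2.41% and 2.83% at days 100 and 200 and 2.66% ± 0.23 in the knockout (n = 3). All of these group means lie below the lowest day 0 library, at 3.09%. The totals differ in that Serpina1a and Serpina1c, at 0 at days 0, 21 and 45, were above 0 in some late and knockout libraries. In limma fits with Benjamini-Hochberg adjustment over all tested genes at 0.05, 0 members rose and 7 fell at day 21, where 6.2% of all genes rose and 1.42% fell. Day 45 brought 1 rise and 20 falls among the 83 members, beside 23.7% and 2.99% of all genes. At days 100 and 200, fitted as 1 group of 2 libraries, 1 rose and 23 fell, beside 28.4% and 3.21%. The knockout had 3 rises and 25 falls, beside 19.3% and 14.5%. Median log2 changes of the members were -0.47, -0.37, -0.46 and -0.21 in this order, whereas those of all genes were 0.06, 0.20, 0.31 and 0.02. The late median was -0.29 without day 100, and the knockout median was -0.11 without day 0 A, -0.36 without knockout A and -0.09 without knockout C.

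The replicates bear these shifts out to different degrees. At day 21, 63 of 83 members were lower in every library than in every day 0 library, against 13.1% of all genes, and 0 were higher in all, against 25.2%. Day 45 gave 46 members below, against 9.37%, and 4 above, against 40.5%. In the knockout 33 were below, against 13.3%, and 2 above, against 21.1%. Many calls on single genes rested on individual libraries. In day 0 A the subunits averaged 0.19 above the day 0 mean on the log2 scale while B and C averaged -0.05 and -0.14. Without day 0 A, no member was called at day 21, where falls over all genes went from 161 to 53. At day 45 only the fall of Uqcrfs1 and the rise of Cox6b2 were then called, where 194 genes fell in place of 339. The same 2 calls remained without day 45 B, where 145 genes fell. Leaving out day 100 or day 200 leaves 1 late library, whose spread is then taken from the other groups. This limits the statements below on leaving out either day. In the knockout 11 falls were left without knockout B and 15 without day 0 B. Over all genes 555 and 801 were left in place of 1642.

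**Figure D2:**
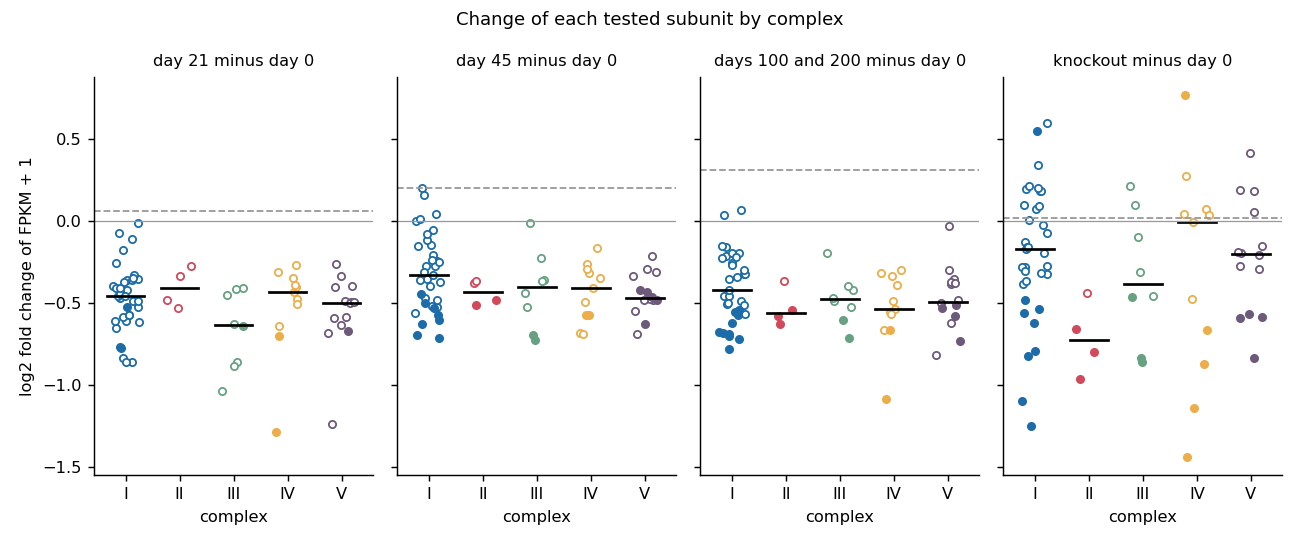
Log2 fold change of FPKM + 1 against day 0 for each of the 72 tested subunits, by complex; filled points passed the limma test at an adjusted p of 0.05, bars are medians, and the dashed line is the median of all 11354 tested genes. Complex medians lie between -0.33 and -0.63 at days 21 to 200, and in the knockout they spread from -0.73 for complex II to -0.01 for complex IV.

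Library differences that follow transcript length bear on this group, since the median member transcript has 711 bases and the median tested gene 2216. Relative to the day 0 mean, log2 FPKM changed by -0.30 per doubling of length in knockout A and by -0.19 in knockout B, but by 0.04 in knockout C, and the other libraries lay between -0.09 (day 0 A) and 0.11 (day 21 B). In knockout A and B short mRNAs were thus high and long mRNAs low. Each library was therefore also freed of its trend with length before the fit. Among members 0 then rose and 8 fell at day 21, against 5.9% and 2.39% of all genes. At day 45 the split was 1 and 40, against 14.6% and 8.66%. At days 100 and 200 it was 0 and 52, against 16.5% and 10.8%, and in the knockout 2 and 36, against 20.4% and 19%. Their medians were -0.41, -0.56, -0.72 and -0.40. The step also centres each library, and centring alone on the median gene gave 38 falls at day 45 and 42 at days 100 and 200, where the median of all genes had moved upward by 0.20 and 0.31. Over all genes at day 45 it took 2688 rises and 339 falls to 1644 and 795 with centring and to 1662 and 983 with the trend removed.

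**Figure D3:**
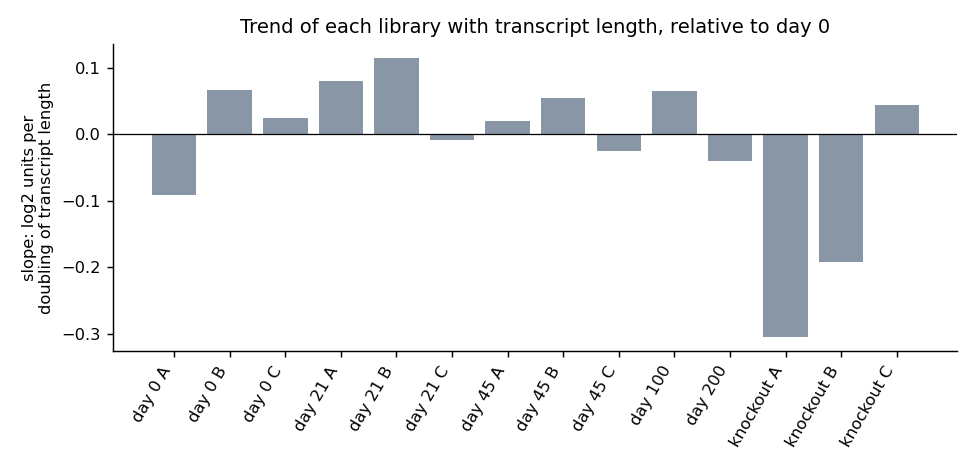
Slope of log2(FPKM + 1) minus the day 0 mean on log2 transcript length over 11148 genes, for each library. Knockout A and B have the steepest slopes, -0.30 and -0.19, and knockout C lies at 0.04.

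Other families of short mRNAs were set beside the subunits. Of 65 cytosolic ribosomal protein genes, 0 passed the test at day 21 or day 45 and 1 rose at days 100 and 200, with medians of -0.39, 0.05 and 0.31, and in the knockout 5 rose and 3 fell with a median of 0.42. Their mean was 0.86 and 0.64 above day 0 in knockout A and B but -0.44 in knockout C, and with the length trend removed the median change was 0.26. Mitochondrial ribosomal proteins, which translate the subunits encoded in the organelle, had 4, 5 and 2 falls and 0 rises of 75 at days 21, 45 and late, and 4 rises and 19 falls in the knockout. Their medians were -0.30, -0.16, -0.16 and -0.13, smaller in size than those of the 83 members in each comparison. Among all genes 1.42%, 2.99%, 3.21% and 14.5% fell and 6.2%, 23.7%, 28.4% and 19.3% rose. These are descriptions, and the difference between families was not tested.

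**Figure D4:**
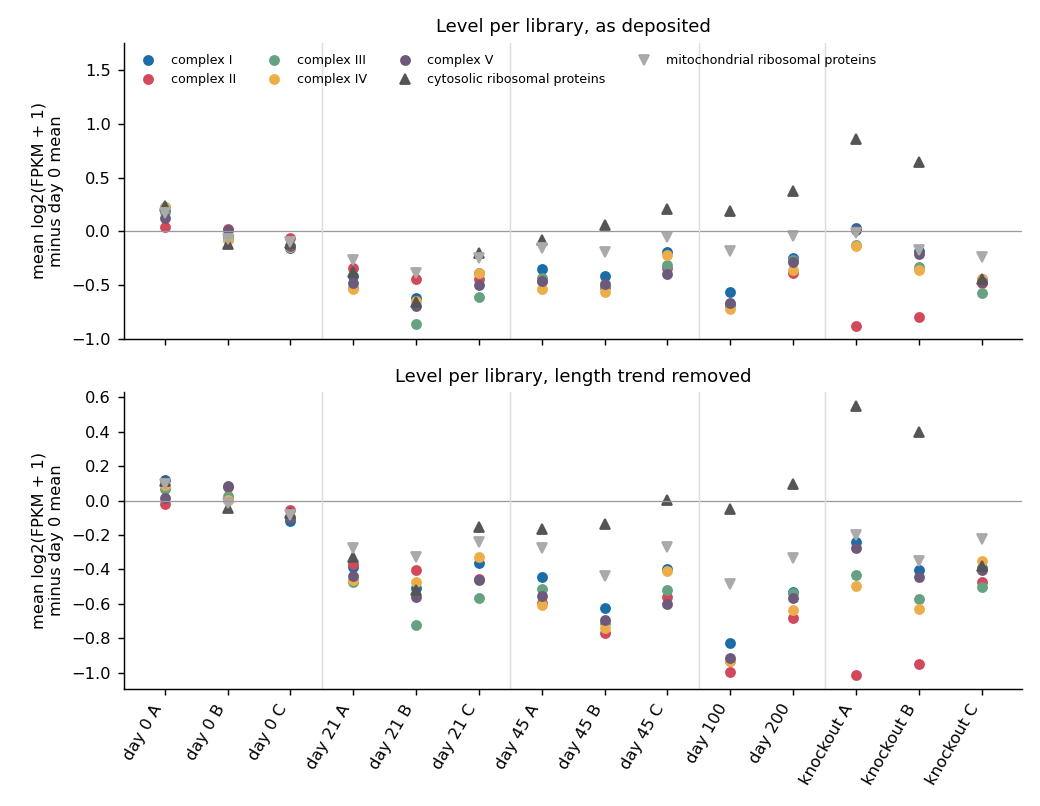
Mean log2(FPKM + 1) of the tested subunits of each complex, and of 2 ribosomal protein families, in each library minus the mean of the day 0 libraries, as deposited (top) and with the length trend removed (bottom). As deposited, complex II lies at -0.88 and -0.79 in knockout A and B, where complexes I and V lie at 0.03 to -0.20, and at -0.48 in knockout C, where the other complexes lie at -0.44 to -0.57.

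Complex I had 35 tested subunits, of which 2 fell at day 21, 8 at day 45, 10 at days 100 and 200 and 8 in the knockout, where 1 rose. Among all genes 1.42%, 2.99%, 3.21% and 14.5% fell. With the length trend removed 3, 14, 20 and 13 fell, against 2.39%, 8.66%, 10.8% and 19% of all genes.

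Ndufab1, the mitochondrial acyl carrier protein that is also a subunit, fell in all 3 comparisons after Cre, by -0.77 ± 0.16 (SE) at day 21, -0.57 at day 45 and -0.68 later, and its log2 difference in the knockout was -0.39 (adjusted p = 0.075). Its level was only 3.02 to 4.28 FPKM at day 0 and 1.21 to 1.96 FPKM at day 21, and it has 2 near-identical copies. The day 21 call was lost without day 0 A or day 21 C, the day 45 call without day 0 A or day 45 B, and the late call without day 200 (highest adjusted p = 0.070, 0.082 and 0.11). Ndufb10 and Ndufb9, accessory subunits of the membrane arm, fell at day 45 and later and passed no test in the knockout. For Ndufb9 the changes were -0.63 and -0.69, lost without day 0 A or B and also without day 45 A or B, or day 100 (highest adjusted p = 0.15 and 0.39). Ndufb10 measured 192, 142 and 145 FPKM at day 0, 93.3, 89.4 and 111 at day 45, 80.1 and 105 at days 100 and 200, and 147, 120 and 105 in the knockout. The day 45 and late libraries lay below all day 0 libraries, and the knockout overlapped them. Its log2 change was -0.69 ± 0.18 at day 45, -0.78 ± 0.20 later and -0.36 in the knockout (adjusted p = 0.014, 0.012 and 0.13). The day 45 call was lost without day 0 A or day 45 B (highest adjusted p = 0.066), and the late one without day 100 (0.16).

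In the knockout the falls of complex I were led by Ndufs1, the largest core subunit and a carrier of iron-sulfur clusters, at -1.25 ± 0.31 (adjusted p = 0.010), and Ndufa1, an X-linked accessory subunit needed for assembly, at -1.10 ± 0.20 (adjusted p = 0.0023). Ndufs1 measured 64.5, 72.8 and 63.5 FPKM at day 0 but 17.2 and 21.9 FPKM in knockout A and B, and 54.2 FPKM in knockout C. All 3 lay below day 0, and knockout C was just above the 40.0 to 53.8 FPKM of days 21 and 45. The call was lost without knockout B (adjusted p = 0.054). Ndufa1 stood at 267, 213 and 203 FPKM at day 0, 138 to 161 at day 21, 135 to 166 at day 45, and 88.6, 98.7 and 133 in the knockout. No group overlapped day 0, and the knockout call held whichever library was left out. Its day 45 call (-0.60, adjusted p = 0.040) was lost whichever of the 6 libraries was left out (highest adjusted p = 0.15). Ndufa1 was also called lower at days 100 and 200, a call lost without any 1 day 0 library (highest adjusted p = 0.144) or without day 100. Ndufa5, an accessory subunit of the matrix arm, fell by -0.71 at day 45, -0.70 later and -0.79 in the knockout, each time with all libraries below day 0. Its knockout call was lost without knockout B (adjusted p = 0.058), its day 45 call without day 0 A, day 45 A or day 45 B (highest 0.081), and its late call without day 0 A or day 100 (highest 0.27). Ndufa10, on the matrix side of the membrane arm, fell at days 100 and 200 only (-0.72, adjusted p = 0.016), a call lost without day 0 B, day 100 or day 200 (highest 0.12). Ndufa12, an accessory subunit with 1 near-identical copy, was called up in the knockout by 0.55 (adjusted p = 0.043) and missed the threshold with the length trend removed (0.37, adjusted p = 0.053). Without day 0 B, day 0 C, knockout A or knockout B it was not called either (highest 0.18).

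Complex II had no near-identical copies and the largest median change in the knockout. In the order Sdha (the flavoprotein), Sdhb (iron-sulfur subunit), Sdhc and Sdhd (membrane anchors), the log2 changes were -0.66, -0.44, -0.80 and -0.97, with adjusted p of 0.025, 0.059, 0.0050 and 0.0010. Sdhd measured 340, 274 and 292 FPKM at day 0, 215, 211 and 196 at day 21, 212, 198 and 221 at day 45, 181.997 and 221 at days 100 and 200, and 133, 159 and 170 in the knockout. Every later library was below every day 0 library, and the knockout libraries were also below all those after Cre. Sdhd fell at day 45 (-0.51 ± 0.15), at days 100 and 200 (-0.58 ± 0.17) and in the knockout (-0.97 ± 0.15). Its knockout call held whichever library was left out, whereas the day 45 call was lost without day 0 A, day 0 C, day 45 A or day 45 B (highest adjusted p = 0.097) and the late one without day 0 A or day 100 (highest 0.21).

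Sdhc stood at 227, 208 and 200 FPKM at day 0, 162 to 172 at day 21, 158 to 173 at day 45 and 104, 107 and 160 in the knockout, and fell only there, a call kept whichever library was left out. Sdha stood at 233, 292 and 246 FPKM at day 0 and at 132, 141 and 227 in the knockout, where A and B were far below C. It was called in the knockout and at days 100 and 200 (-0.63), but the knockout call ended without day 0 B, day 0 C, knockout A or knockout B (highest adjusted p = 0.11) and the late call without any 1 of its 5 libraries (highest 0.23). Sdhb at 207, 211 and 193 FPKM at day 0 and 142 to 157 in the knockout was the least shifted of the 4. Its day 45 call (-0.48, adjusted p = 0.049) was lost whichever of 6 libraries was left out (highest 0.15), and its late call (-0.55, adjusted p = 0.042) without any 1 day 0 library or day 100 (highest 0.53). With the length trend removed all 4 subunits fell in the knockout and 3 at day 45, where 19% and 8.66% of all genes fell.

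Of 8 complex III subunits, 1 fell at day 21, 2 at day 45, 2 at days 100 and 200 and 3 in the knockout, where 1.42%, 2.99%, 3.21% and 14.5% of all genes fell. Uqcrfs1, the Rieske iron-sulfur protein that hands electrons to cytochrome c1, fell in all 4 comparisons. It measured 242, 201 and 190 FPKM at day 0, 134, 133 and 136 at day 21, 130, 120 and 138 at day 45, 112 and 145 at days 100 and 200, and 102, 104 and 144 in the knockout. All later libraries lay below all day 0 libraries. Its log2 changes were -0.64, -0.70 ± 0.17, -0.71 and -0.86 ± 0.17, all called. The calls at day 45 and in the knockout (adjusted p = 0.010 and 0.0039) held whichever library was left out. The day 21 call ended without any 1 of its 6 libraries (highest adjusted p = 0.15) and the late call without day 100 (0.18). Uqcrh stood at 731, 504 and 461 FPKM at day 0, 327, 320 and 359 at day 45 and 436, 384 and 390 in the knockout. It fell at day 45 by -0.72 (adjusted p = 0.013, lost without day 0 A or day 45 B, highest 0.055) and later by -0.60 (adjusted p = 0.045, lost without day 0 A, day 0 B or day 100, highest 0.37). In the knockout the difference was -0.46 (adjusted p = 0.075). Uqcrb, with 3 near-identical copies, fell in the knockout by -0.47 (adjusted p = 0.0475), not without day 0 A, day 0 B, knockout A or knockout B (highest 0.20). The core protein Uqcrc2, picked out after its values were seen, fell there too, by -0.84 (adjusted p = 0.012), lost without knockout A or B (highest 0.064).

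Among the 11 complex IV subunits, Cox6c and Cox7c fell at day 21, Cox6c and Ndufa4 at day 45, Cox5a and Cox7c at days 100 and 200, and Cox6c, Cox7b, Cox7c and Ndufa4 in the knockout, beside 1.42%, 2.99%, 3.21% and 14.5% of all genes. In the knockout Cox5b rose, beside 19.3% of all genes. These are small nuclear subunits around the catalytic core that mitochondrial DNA encodes. Cox7c had the largest fall of any subunit after Cre, -1.29 ± 0.29 at day 21 (adjusted p = 0.020). It measured 35.6, 37.6 and 43.4 FPKM at day 0, 15.9, 11.1 and 20.1 at day 21, 18.6, 19.5 and 36.2 at day 45, 12.6 and 24.7 at days 100 and 200, and 16.7, 18.5 and 15.9 in the knockout. Day 21, the late libraries and the knockout were all below day 0, but day 45 C was not. The changes were -1.09 late and -1.14 in the knockout (adjusted p = 0.022 and 0.012), and -0.69 at day 45 (adjusted p = 0.098). The knockout call held whichever library was left out. The day 21 call did not without day 0 A, B or C or day 21 B (highest adjusted p = 0.086), nor the late one without day 0 C or day 100 (highest 0.31). Cox7c has 4 near-identical copies. Cox5a, picked out after its values were seen, fell by -0.67 at days 100 and 200 (adjusted p = 0.023), lost without day 0 A, day 100 or day 200 (highest 0.14).

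Cox7b, X-linked and with 2 near-identical copies, had the largest fall of any subunit in the knockout, -1.44 ± 0.28 (adjusted p = 0.0036). It stood at 238, 204 and 191 FPKM at day 0, 121 to 151 at day 45 and 57.2, 59.1 and 135 in the knockout, where C was far above A and B. The call held whichever library was left out. Cox6c measured 749, 559 and 541 FPKM at day 0, 350 to 408 at day 21, 375 to 436 at day 45 and 357, 339 and 304 in the knockout, with no overlap with day 0. Its knockout change of -0.87 (adjusted p = 0.0058) held whichever library was left out, while the calls at day 21 (-0.70) and day 45 (-0.57) were lost whichever library was left out (highest adjusted p = 0.16 in both). Ndufa4 stood at 1297, 1022 and 1002 FPKM at day 0, 665 to 837 at day 45 and 659, 586 and 864 in the knockout. It fell by -0.58 and -0.66 there (adjusted p = 0.048 and 0.024), calls lost without any 1 library at day 45 and without day 0 A, knockout A or knockout B in the knockout (highest 0.17 and 0.11).

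Complex V had 14 tested subunits, with 1, 5, 4 and 4 falls in the 4 comparisons, where 1.42%, 2.99%, 3.21% and 14.5% of all genes fell, and 0 rises, where 6.2%, 23.7%, 28.4% and 19.3% rose. Falls were found in the catalytic head (Atp5a1 and Atp5b), the central stalk (Atp5c1), the peripheral stalk (Atp5f1 and Atp5j) and the small membrane subunits (Atp5k). Atp5k, subunit e, which was picked out after its values were seen, has 2 near-identical copies and fell only at days 100 and 200 (-0.58, adjusted p = 0.035), a call lost without day 0 A, day 0 B or day 100 (highest 0.31). The c-ring genes Atp5g1 and Atp5g3 passed no test, with medians of -0.38, -0.30, -0.44 and 0.30 in the 4 comparisons. With the length trend removed Atp5g3 fell at day 45 and later (-0.47 and -0.76). Atp5f1, subunit b of the peripheral stalk, measured 88.9, 76.3 and 76.6 FPKM at day 0, 52.7, 46.5 and 51.5 at day 21, 57.5, 55.8 and 60.7 at day 45, 48.8 and 62.5 at days 100 and 200, and 50.2, 51.5 and 57.7 in the knockout. All later libraries were below day 0. It fell in every comparison, by -0.67 ± 0.14, -0.47, -0.53 and -0.59 ± 0.14 (adjusted p = 0.014, 0.026, 0.020 and 0.0084). The knockout call held whichever library was left out. The others were lost without day 0 A, and also without day 21 B or C, day 45 A or B, or day 100 (highest adjusted p = 0.063, 0.095 and 0.26). Atp5f1 has 1 near-identical copy.

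Atp5j, coupling factor 6 of the peripheral stalk, stood at 307, 220 and 209 FPKM at day 0, 145 to 178 at day 45 and 128, 120 and 160 in the knockout. Both groups lay below all day 0 libraries and overlapped each other. Its changes were -0.63 at day 45, -0.73 later and -0.83 ± 0.18 in the knockout (adjusted p = 0.022, 0.015 and 0.0057), the last kept whichever library was left out and the first 2 lost without day 0 A, among others (highest adjusted p = 0.093 and 0.16). Atp5b, the highest mRNA of the complex, measured 850, 909 and 836 FPKM at day 0, 628, 602 and 695 at day 45 and 739, 673 and 736 in the knockout. Both groups were below day 0, by -0.43 at day 45 (adjusted p = 0.039) and -0.27 in the knockout (adjusted p = 0.14). The day 45 call held only without day 45 C (highest adjusted p = 0.14).

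Of the 4 complex I assembly factors, Ndufaf1 fell at day 45, Ndufaf1 and Ndufaf4 at days 100 and 200, and Ndufaf1, Ndufaf2 and Ndufaf4 in the knockout. Of all genes 2.99%, 3.21% and 14.5% fell in these comparisons. Ndufaf4 measured 9.73, 8.70 and 7.23 FPKM at day 0, 5.12 to 5.38 at day 45, 4.63 and 4.33 at days 100 and 200, and 2.43, 2.21 and 6.18 in the knockout. All later libraries were below day 0, and knockout C lay nearer to it than A and B. The knockout change was -1.15 ± 0.25 (adjusted p = 0.0056), kept whichever library was left out, and the late one -0.79 (adjusted p = 0.044), lost without any 1 of 5 libraries (highest 0.17). Ndufaf1 fell by -0.46, -0.54 and -0.48 (adjusted p = 0.021, 0.014 and 0.016), lost at day 45 without day 0 A, day 0 B or day 45 B, later without day 100 and in the knockout without day 0 B or knockout B (highest adjusted p = 0.090, 0.14 and 0.083). Ndufaf2, a chaperone related to Ndufa12, fell in the knockout by -0.61 (adjusted p = 0.031), lost without any 1 day 0 library or knockout B (highest 0.15). Ndufaf3 was not called, at 0.51 in the knockout. Cox7a2l, which takes part in joining complexes III and IV into supercomplexes, differed from day 0 by -0.28 to 0.20 and passed no test. Of the genes whose products are not subunits, Atp5s rose at days 100 and 200 (0.56, adjusted p = 0.031), not with the length trend removed (0.26, adjusted p = 0.36) nor without day 0 B, day 0 C, day 100 or day 200 (highest 0.16). Atp5sl and Cox4nb, a subunit of a complex of the endoplasmic reticulum, were not called, between -0.36 and 0.20.

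The rises were led by Cox6b2, the isoform of subunit 6b described in testis (chr7:4703396-4704696, mm9). It stood at 1.18, 0.108 and 0.157 FPKM at day 0, 1.71, 0.729 and 1.19 at day 21, 2.025, 4.46 and 2.57 at day 45, 1.745 and 1.11 at days 100 and 200, and 31.2, 16.7 and 21.2 in the knockout. All day 45 and all knockout libraries were above all day 0 libraries, and the knockout was above every library after Cre. The log2 change was 1.47 ± 0.31 at day 45 (adjusted p = 0.0050) and 4.05 ± 0.31 in the knockout (adjusted p = 7.8e-06), on the log2(FPKM + 1) scale, which understates change at such low levels. At day 21 and later it was 0.63 and 0.77 (adjusted p = 0.28 and 0.12). Both calls held in each of the 15 other settings followed for single genes, among them leaving out each library. Of all tested genes 25 rose as much or more in the knockout. Cox6b2 had no near-identical copy. Levels of its neighbour Suv420h2 overlapped between day 0 and the knockout (4.59 to 5.62 and 4.05 to 6.23 FPKM), and the flanking genes Fam71e2 and Il11 stayed at or below 0.095 FPKM in all libraries. Even at its highest Cox6b2 was far below Cox6b1, the isoform of most tissues, which measured 619 to 734 FPKM at day 0 and 574 to 859 FPKM in the knockout and passed no test.

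**Figure D5:**
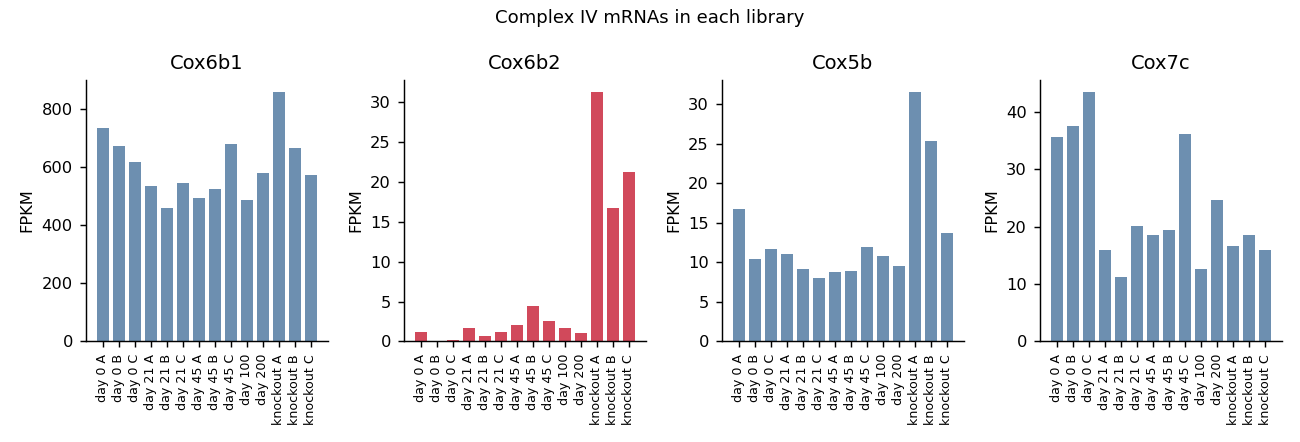
FPKM in each of the 14 libraries (1 bar each) for Cox6b1, Cox6b2, Cox5b and Cox7c, each with its own axis from 0. Cox6b2 reaches 16.7 to 31.2 FPKM in the knockout against 0.108 to 1.18 at day 0, Cox5b is high in knockout A and B only, and Cox7c is below day 0 in all libraries after Cre except day 45 C.

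The 150 bases before the annotated starts of both isoform genes are printed because their levels differ so widely in the same livers (RefSeq, GRCm38.p6; minus strand, 5′ to 3′). Capitals mark a match to the core letters of ETS factors such as GABPA, CCGGAAG on either strand, which the Cox6b1 stretch (chr7:30626115-30626264) holds in reverse complement and the Cox6b2 stretch (chr7:4753095-4753244) does not hold.
Cox6b1: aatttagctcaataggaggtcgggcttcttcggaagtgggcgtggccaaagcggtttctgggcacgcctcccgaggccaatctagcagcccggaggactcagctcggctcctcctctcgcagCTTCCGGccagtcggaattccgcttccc
Cox6b2: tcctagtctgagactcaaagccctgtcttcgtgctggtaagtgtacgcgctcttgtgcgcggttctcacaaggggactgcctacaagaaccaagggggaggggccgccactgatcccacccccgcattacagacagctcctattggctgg
Letters linked to 4 regulators of mitochondrial genes were searched on both strands in promoters from 250 bases before to 50 after the start, which were found for 74 of the 90 members. NRF1 letters (GCGCATGCG) were held by 9 of 74 members, or 12.2%, against 4.03% of 9035 tested genes and 1.95% of all 27025 genes. ETS letters were held by 17, or 23.0%, against 20.4% of tested genes. YY1 letters (ATGGCGGC) were held by 7, or 9.46%, against 5.95%, and ESRRA letters (CAAGGTCA) by 4, or 5.41%, against 1.32%. The motifs can overlap the same promoter, and a match of letters is not evidence of binding.

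The other isoforms of complex IV subunits were low. Cox7a1, the muscle isoform of subunit 7a, stood at 10.995, 6.66 and 6.05 FPKM at day 0 and 4.34, 2.69 and 2.34 FPKM at day 21, and fell by -1.10 ± 0.26 (adjusted p = 0.025). The groups did not overlap, but the call ended without day 0 A, day 0 B, day 21 B or day 21 C (highest adjusted p = 0.11). At day 45 and in the knockout it was lower by -0.75 and -0.58 (adjusted p = 0.051 and 0.099). Ndufa4l2, the isoform described in hypoxia, was at 1.06 to 1.15 FPKM at day 0 and 1.85 to 2.74 FPKM at day 45, with a difference of 0.58 (adjusted p = 0.084). Cox4i2 and Cox6a2 reached at most 1.28 and 1.40 FPKM, both in knockout A, Cox8b at most 1.68 FPKM, in day 200, and Cox7b2 and Cox8c were listed at 0 in all 14 libraries.

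The germline knockout was also compared with day 45, the time after Cre with the lowest miR-122 share, to set lifelong loss beside loss begun by the vector. At the threshold, 2 members were higher in the knockout than at day 45 and 0 were lower, beside 1.21% and 8.23% of all genes. They were Cox6b2, by 2.58 ± 0.31 (adjusted p = 0.00073, kept whichever library was left out), and Cox5b, by 1.11 ± 0.27 (adjusted p = 0.029). Cox5b, a zinc-binding subunit with 2 near-identical copies, stood at 16.7, 10.4 and 11.7 FPKM at day 0, 8.77, 8.87 and 11.95 at day 45, and 31.6, 25.4 and 13.7 in the knockout. Knockout A and B were high and C lay within the day 0 range. It was also called up against day 0, by 0.77 (adjusted p = 0.044). The call against day 0 ended without day 0 B, day 0 C, knockout A or knockout B (highest adjusted p = 0.19), and that against day 45 without any library other than knockout C (highest 0.12).

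Leaving out knockout C changed the calls. Without it 17 members rose, in place of 3, and 25 fell against day 0, the number found with it, beside 31.7% and 30.7% of all genes. Against day 45, 24 were higher and 11 lower, beside 14.6% and 37.5%. Knockout C was the library with Y-linked transcripts and without the length trend of A and B, and leaving it out also leaves a knockout group of 2 that share the trend. Within complex I 10 of 35 rose and 8 fell against day 0, neither count above the share of all genes. The rises included Ndufv3 (0.67) and Ndufb7 (0.58), both accessory, and the falls Ndufs1 (-1.73), Ndufs4 (-1.12), an accessory subunit close to the NADH site, and Ndufv2 (-0.73), a core subunit there. Complex II had 0 rises and 3 falls, with Sdhd at -1.04, Sdhc at -0.997 and Sdha at -0.90. In complex V the c-ring gene Atp5g1 rose by 0.74 (1 near-identical copy) and Atp5d of the central stalk by 0.56, while Atp5j, Atp5c1, Atp5f1 and Atp5a1 fell. Of these Ndufv3, Ndufb7, Ndufs4, Ndufv2, Atp5g1 and Atp5d were picked out after their values were seen. With the length trend removed as well, 7 members rose and 42 fell against day 0, among them 2 rises and 16 falls in complex I and 4 falls in complex II, beside 32.9% and 31.9% of all genes.

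Between days 21 and 45, while miR-122 went from 8.22% to 13.2% down to 0.383% to 1.23% of microRNA RPM, 0 members passed the limma test, beside 0.273% of all genes called higher and 0% called lower. At an unadjusted p under 0.05, 5 of 83 members and 1811 genes differed. The median log2 difference was 0.09 for the members (-0.0049 to 0.13 over the libraries left out) and 0.15 for all genes. It turned to -0.16 with the length trend removed and to -0.09 with median centring, so it has no stable direction.

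Other genes of mitochondrial energy metabolism were mixed. Of 27 tested assembly factors and partners of the complexes outside the rule, 2, 3, 4 and 6 fell in the comparisons with day 0 and 0, 1, 1 and 1 rose, beside falls of 1.42%, 2.99%, 3.21% and 14.5% of all genes. Sco2, which delivers copper to complex IV, fell from 49.7 FPKM at day 0 to 18.8 at day 21 (-1.36 ± 0.25, adjusted p = 0.0088) and 18.2 at day 45 (-1.40), and its difference in the knockout was -0.47 (adjusted p = 0.16). Its calls at days 21 and 45 held whichever library was left out. Cyc1, cytochrome c1 of complex III, fell by -0.60 and -0.57 at days 21 and 45, and Foxred1, a complex I assembly factor, by -0.44 at day 45 and -0.95 in the knockout. The knockout call of Foxred1 held whichever library was left out. Both Cyc1 calls were lost without day 0 A or B, among others (highest adjusted p = 0.15 and 0.087), and the Foxred1 call at day 45 without day 0 A, day 0 B, day 45 B or day 45 C (highest 0.15). Atpif1, the inhibitor that stops ATP synthase from running backwards, took the opposite course. It rose from 43.1 FPKM at day 0 to 120 at day 45 (1.54 ± 0.34, adjusted p = 0.0058), 185 later (2.17) and 213 in the knockout (2.27), in each case whichever library was left out.

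Of 13 enzymes of the citric acid cycle, 3 rose and 2 fell at days 21 and 45, 3 rose and 3 fell later, and 3 rose and 5 fell in the knockout. The rises at day 45 and later are no larger a share than the 23.7% and 28.4% among all genes. At day 21 and in the knockout 6.2% and 19.3% of all genes rose. Falls stand beside 1.42%, 2.99%, 3.21% and 14.5% of all genes. On average these enzymes were at -0.35 and -0.31 in knockout A and B and at 0.16 in knockout C, relative to day 0. Citrate synthase (Cs) rose from 68.3 to 142 FPKM at day 45 (1.03 ± 0.18, adjusted p = 0.0017) and Idh3g from 59.7 to 120 FPKM (1.00), whereas Suclg1 fell by -0.66; all 3 calls held whichever library was left out. Sdha to Sdhd, which belong to both the cycle and the respiratory chain, are counted with complex II alone. Slc25a4, the ADP/ATP carrier isoform of heart and muscle, rose from 8.02 FPKM to 28.3 at day 45 (1.68 ± 0.23, adjusted p = 0.00063), 51.1 later (2.55) and 22.5 in the knockout (1.37), while Slc25a5, the isoform of most tissues, passed no test, with differences of -0.35 to 0.07. The other 4 carriers and porins passed none. Of 12 tested regulators of mitochondrial biogenesis 0 were called after Cre (lowest adjusted p = 0.14). In the knockout 3 fell, namely Gabpa, a GA-binding protein that regulates respiratory genes (-1.55), and Tfam and Tfb2m, which act in transcription of mitochondrial DNA (-1.12 and -0.96), beside 14.5% of all genes. Adjusted p were 0.013, 0.012 and 0.0082, and with the length trend removed the changes were -1.58, -1.28 and -0.99. The calls of Gabpa and Tfam were lost without knockout A or B (highest adjusted p = 0.065 and 0.063), and that of Tfb2m held whichever library was left out.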

How the data were processed

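RNA-seq was run on poly(A) RNA of 14 liver libraries. Small RNA-seq libraries with the same labels for days 0 to 200 gave the miR-122 share. The deposited FPKM values were made by the authors with TopHat 2.0.14 and Cufflinks 2.2.1 (upper quartile normalization) on mm9, from paired reads of 101 bases; the authors' microRNA values, deposited in RPM, followed alignment with Bowtie 0.12.7. FPKM keep no read counts, so no count test was run and the depth behind a value is known only relative to other libraries. Rows of the 224 symbols with several rows were summed, symbols with a mean of at least 1 FPKM were kept, and log2(FPKM + 1) was fitted with limma 3.58.1 (lmFit, contrasts, eBayes with trend, R 4.3.3) in 1 model of 5 groups, days 100 and 200 together. Two-sided p-values were adjusted after Benjamini and Hochberg over all tested genes per comparison, at 0.05; the fit was tested on simulated data. Length trends were lowess curves (span 0.3) on log2 transcript length. Copies were found with BLAST 2.17.0. Deviations of same-lettered libraries correlated at 0.27, 0.24 and 0.50 between days 21 and 45 and between -0.45 and 0.32 in the other comparisons. The labels do not say that letters pair animals, and the main fit used no replicate block in any comparison. Alternatives changed the pseudocount, filter, centring, groups in the fit, replicate block, sex terms and libraries. Named were up to 6 called rises and falls per comparison with day 0, the highest and lowest subunit of each complex, complex II, isoforms and members that are no subunits, and up to 4 called genes per further list by change at day 45; others are said to be picked out later or stand for a role. Members and lists were chosen with earlier results of these data known. Values of 2 genes that these rules or counts cover are not reported here.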

Additional observations from a re-analysis of the deposited data

Results flagged for a closer look

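The knockout differed from day 45 by a test of the difference itself in 2 members. For Cox6b2 the difference was 2.58 on the log2 scale (limma, adjusted p = 0.00073) and all 3 knockout libraries were above all 3 of day 45. For Cox5b it was 1.11 (adjusted p = 0.029), again with all 3 above, and it rested on knockout A and B, which carried the strongest length trend (slopes of -0.30 and -0.19), while knockout C, at 13.7 FPKM, lay close to day 45 C at 11.95 FPKM. With the length trend removed the difference was 1.06 (adjusted p = 0.011). The part of the 2 near-identical copies of Cox5b in it was not tested.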

How the results depend on the processing

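Of 61 named calls, 0 changed sign in any setting followed for single genes. Settings that combine trend removal with a further change were not followed for single genes. Of the 61, 58 held with the length trend removed, 56 with median centring, 60 with a pseudocount of 0.1 and 57 without a minimum FPKM. In a robust fit without trend 61 held, 40 of 61 with only both groups compared in the fit, and 14 whichever library was left out. Combined settings and those on sex transcripts were chosen after seeing the data. Members called at day 21 were falls in all these settings. The 7 in the main fit, beside 161 falls of all 11354 genes, became 4 with the replicate block (beside 85). They became 26 with 2 groups only (373) and 13 with the length trend removed and a Y term (384). In Xist-expressing libraries 2 were called with or without trend removal (260 and 161). At day 45 (21) they became 41 with the trend removed, 39 centred, 38 with both, 32 with trend removal and the replicate block, 46 with the Y term and 47 in Xist-expressing libraries, both with trend removal, the last beside 29.2% of all genes. At days 100 and 200 the main fit gave 1 rise and 23 falls, beside 3227 and 365 of all genes. The same settings gave 0 rises and 52, 42, 52, 53 and 61 falls, beside 1223, 993, 1171, 1305 and 1975 of all genes. The last stands beside 38.4% of all genes called, and the replicate block has no value here. The knockout (28) gave 6 with 2 groups only. The knockout against day 45 (2 higher) gave 1 higher with the replicate block and 1 with 2 groups, where 74 and 21 genes were higher. With the Y term 3 were higher and 1 lower, beside 219 and 1651 genes. With trend removal as well, 4 were higher and 0 lower, beside 404 and 409. In Xist-expressing libraries 34 and 32 were called without and with trend removal, where 49.5% and 50.5% of all genes were. The replicate block, which takes letters as pairs in all lettered groups, kept 36 of the 44 named calls fitted with it. Between days 21 and 45 it gave 0 as well. Leaving out 1 library gave 0 to 4, 2 to 18, 1 to 21, 12 to 42 and 1 to 35 members in this order, and with trend removal 0 to 4 (3 without day 0 C), 17 to 33, 9 to 45, 18 to 49 and 1 to 37. Day 45 against day 21 gave 0 in each setting. In the fits as deposited, member counts fell furthest on leaving out day 0 A at day 21, day 0 A or day 45 B at day 45 and knockout B in the knockout. FPKM without counts leaves low members, those with copies above all, without a depth limit.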
